A study of Homo sapiens with 6 samples.

Results

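The 36 genes described here code for the enzymes that build cholesterol and long-chain fatty acids from acetyl-CoA, together with the proteins that switch those enzymes on and off. They were taken from a list of symbols and matched to the Ensembl identifiers of the deposited tables, where all 36 were found among 61498 genes. They fall into 7 genes of the mevalonate steps, 11 of the squalene and late sterol steps, 10 of the fatty acid steps and 8 that control these steps or move sterol in the cell. Total RNA depleted of ribosomal RNA was sequenced from 3 human cell lines, with 2 libraries per line. RPMI-8226 is an established multiple myeloma line, a cancer of antibody-secreting plasma cells. From it comes RPMI-8226-R, which resists the proteasome inhibitor bortezomib, a drug used against myeloma. NCI-BL2171 is the name on the remaining pair of libraries. The labels give all 6 libraries as untreated B-lymphocytes, and do not give how RPMI-8226-R was selected, whether it is 1 clone, or whether the replicates of a line are separate cultures. The p-values therefore set a difference between lines only against the spread of replicate libraries, and that spread may be technical. In bulk RNA, fewer cells of a kind and less RNA per cell cannot be told apart.

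Cells make sterols by condensing acetyl-CoA to mevalonate, turning it into isoprenoid units and then squalene, and closing and trimming the ring to give cholesterol. Fatty acids are built from the same acetyl-CoA through malonyl-CoA, then elongated and desaturated. Both pathways answer to the SREBP transcription factors, which are held in the endoplasmic reticulum by INSIG proteins and SCAP while sterol is plentiful, and which move to the nucleus and switch on the genes when sterol runs low. Plasma cells are known for a large endoplasmic reticulum, whose membrane draws on both products.

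The libraries held between 23952370 and 29052199 estimated reads. The replicates of each line differed by more than counting noise, with a chi-square per gene from 3.34 to 10.2. Markers checked the labels. In RPMI-8226, 14 plasma and B cell genes summed to 59260 and 62000 TPM (the deposited level per length), and in RPMI-8226-R to 32860 and 33900 TPM, most of it the light chain gene IGLC2. In the libraries labelled NCI-BL2171 the same genes summed to 52.3 and 53.5 TPM, with 7 and 5 of them at 0, among them JCHAIN, TNFRSF17, IRF4 and MS4A1. There, 10 erythroid genes summed to 4425 and 4280 TPM, against 84.6 and 89.4 TPM in RPMI-8226 and 176 and 190 TPM in RPMI-8226-R, where GATA1 and ALAS2 were at 0. Because these values go against the label of a B-lymphocyte, the pair is called the libraries labelled NCI-BL2171, and comparisons with it are comparisons with those libraries.

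The promoter windows of 5 genes are shown to place the measurements on sequence: SREBF2, the only window of the group with a classical sterol element, and the gene with the largest rise in RPMI-8226-R in each of the 4 groups of steps, chosen after their values were seen. The windows are from RefSeq (GRCh38.p14) and run from 250 bases before the annotated start to 50 bases after it, written 5′ to 3′ on the strand of the gene. They are SREBF2 at chr22:41832855-41833154 (plus strand), HMGCS1 at chr5:43313363-43313662 (minus), LSS at chr21:46228725-46229024 (minus), FADS2 at chr11:61815953-61816252 (plus) and INSIG1 at chr7:155297628-155297927 (plus). Capitals mark the sterol element in SREBF2, and in the other 4 windows the CCAAT box and the GC box GGGCGG in either orientation (ATTGG and CCGCCC on the reverse strand).
SREBF2: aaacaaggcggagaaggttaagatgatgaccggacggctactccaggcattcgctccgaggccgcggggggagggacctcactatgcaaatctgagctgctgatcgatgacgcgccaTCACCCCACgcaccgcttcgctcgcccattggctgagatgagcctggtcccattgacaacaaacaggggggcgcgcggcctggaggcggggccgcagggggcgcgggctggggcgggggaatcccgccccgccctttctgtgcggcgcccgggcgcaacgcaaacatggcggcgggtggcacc
HMGCS1: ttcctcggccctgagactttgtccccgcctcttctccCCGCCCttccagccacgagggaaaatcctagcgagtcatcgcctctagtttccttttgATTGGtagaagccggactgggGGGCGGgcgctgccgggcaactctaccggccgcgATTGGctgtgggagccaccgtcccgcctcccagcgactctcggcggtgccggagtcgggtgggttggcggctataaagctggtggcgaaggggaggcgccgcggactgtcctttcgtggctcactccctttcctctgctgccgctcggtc
LSS: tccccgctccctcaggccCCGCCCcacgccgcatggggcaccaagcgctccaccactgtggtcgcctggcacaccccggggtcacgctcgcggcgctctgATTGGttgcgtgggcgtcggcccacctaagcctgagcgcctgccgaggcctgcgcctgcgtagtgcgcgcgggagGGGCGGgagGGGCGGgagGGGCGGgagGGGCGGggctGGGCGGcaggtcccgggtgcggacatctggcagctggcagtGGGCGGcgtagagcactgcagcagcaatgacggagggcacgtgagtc
FADS2: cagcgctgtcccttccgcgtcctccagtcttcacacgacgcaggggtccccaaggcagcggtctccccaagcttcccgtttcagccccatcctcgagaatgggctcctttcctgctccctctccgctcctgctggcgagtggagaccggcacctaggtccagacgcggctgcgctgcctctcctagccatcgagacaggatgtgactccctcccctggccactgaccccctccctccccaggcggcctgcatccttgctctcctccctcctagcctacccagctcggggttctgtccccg
INSIG1: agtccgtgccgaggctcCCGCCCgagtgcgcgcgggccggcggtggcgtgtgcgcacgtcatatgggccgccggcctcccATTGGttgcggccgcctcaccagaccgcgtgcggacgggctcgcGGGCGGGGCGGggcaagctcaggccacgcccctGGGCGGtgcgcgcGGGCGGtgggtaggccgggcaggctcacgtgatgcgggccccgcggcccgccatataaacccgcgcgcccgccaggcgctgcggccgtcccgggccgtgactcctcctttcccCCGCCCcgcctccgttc

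A window was matched for 32 of the 36 genes, and ACAT2, FDFT1, SQLE and FASN had none. Only 1 window was used per gene, so other starts of a gene were not searched. Each window was searched on both strands for 3 sets of letters, none of which contains another, and overlapping matches of 1 set were each counted. The classical sterol element TCACNCCAC was in 1 of the 32 windows (3.12%), that of SREBF2, where TCACCCCAC lies 133 bases before the start, and in 1.15% of 27305 windows of all genes. CCAAT, the box bound by NF-Y, was in 21 of the 32 windows (65.6%) and in 35.7% of all windows. GGGCGG, the box bound by Sp1, was in 29 of the 32 windows (90.6%) and in 44.6% of all. The windows of all genes were not matched to the 32 for expression or gene type. The window of LSS held 1 CCAAT and 7 GC boxes, that of INSIG1 held 1 and 6, that of HMGCS1 held 2 and 2, and that of FADS2 held neither. The FADS2 window lies inside the FADS2 locus, which begins at chr11:61792980 in GENCODE 29, and does not cover the first base of that locus. CCAAT was in 14 of the 23 windows of genes higher in RPMI-8226-R than in RPMI-8226, in 3 of the 5 windows of genes lower and in all 4 of the others. A match is a description of the letters in a window, and a window without one says nothing about the factor.

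RPMI-8226-R carried more RNA of most of these genes than its parent RPMI-8226. Counts were compared with edgeR's quasi-likelihood test over all 6 libraries, adjusted by Benjamini-Hochberg over the 20081 genes tested, and a gene is called at an adjusted p under 0.05. All 36 genes passed the filter on low counts. Of them 26 were called higher in RPMI-8226-R, where 28.5% of all genes tested were, 6 were called lower, where 37.2% of all genes were, and 4 were not called. The CPM of the lines did not overlap for 33 of the 36 genes and for 80.6% of all genes tested. At least 2-fold higher were 14 (11.8% of all genes), and at least 2-fold lower were 2 (21.5% of all genes). The median log2 fold change was 0.69 over the 36 genes and -0.12 over all genes. The steps differed. All 7 mevalonate genes were higher. In the late sterol steps 7 of 11 were higher and 1 lower, and in the fatty acid steps 9 of 10 were higher and 1 lower. Of the 8 control and sterol-handling genes 3 were higher and 4 lower. The median log2 fold changes of the 4 groups were 0.78, 0.67, 1.34 and -0.03. Between the same libraries the summed plasma and B cell markers were lower and the summed erythroid markers higher, as given above. By gene, 7 of the 13 plasma and B cell markers tested were called higher and 5 lower. Of the 10 erythroid markers 1, the globin gene HBA1 (24.1 against 96.97 mean TPM), was called higher, 1, AHSP, lower, and 8 were not called, and GATA1 and ALAS2 were at 0 in all 4 libraries. The part of the light chain RNA in these differences was not tested.

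Summed per length, the same steps showed the size of the difference in each library on the TPM scale only. PMVK and SCD had the same length in all 6 libraries. By count they were 1.38-fold and 2.30-fold higher in RPMI-8226-R than in RPMI-8226, and by mean TPM 1.81-fold and 2.99-fold higher. The sums are in TPM and were not corrected for this shift, whose cause was not tested. The mevalonate genes summed to 433 and 422 TPM in RPMI-8226 and to 906 and 999.6 TPM in RPMI-8226-R. The late sterol genes summed to 942 and 924 TPM in RPMI-8226 and to 1369 and 1476 TPM in RPMI-8226-R. The fatty acid genes summed to 538 and 528 TPM and to 1528 and 1763 TPM. In none of these sums did the libraries of the 2 lines overlap. The control genes went from 663 and 654 TPM to 1338 and 1573 TPM although 4 of the 8 were called lower by count; INSIG1 and SREBF1, both higher, made up most of that sum.

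**Figure D1:**
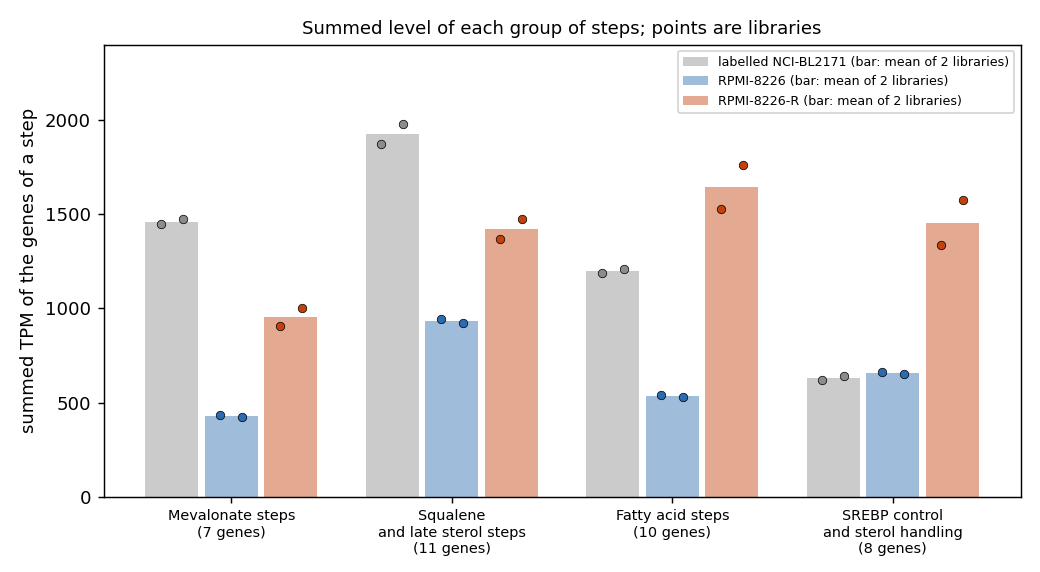
Summed TPM of the genes of each group of steps (vertical axis, TPM) for the 3 lines; bars are means of 2 libraries and points are libraries. In every group both RPMI-8226-R points lie above both RPMI-8226 points, and in the fatty acid and control groups they also lie above the libraries labelled NCI-BL2171.

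**Figure D2:**
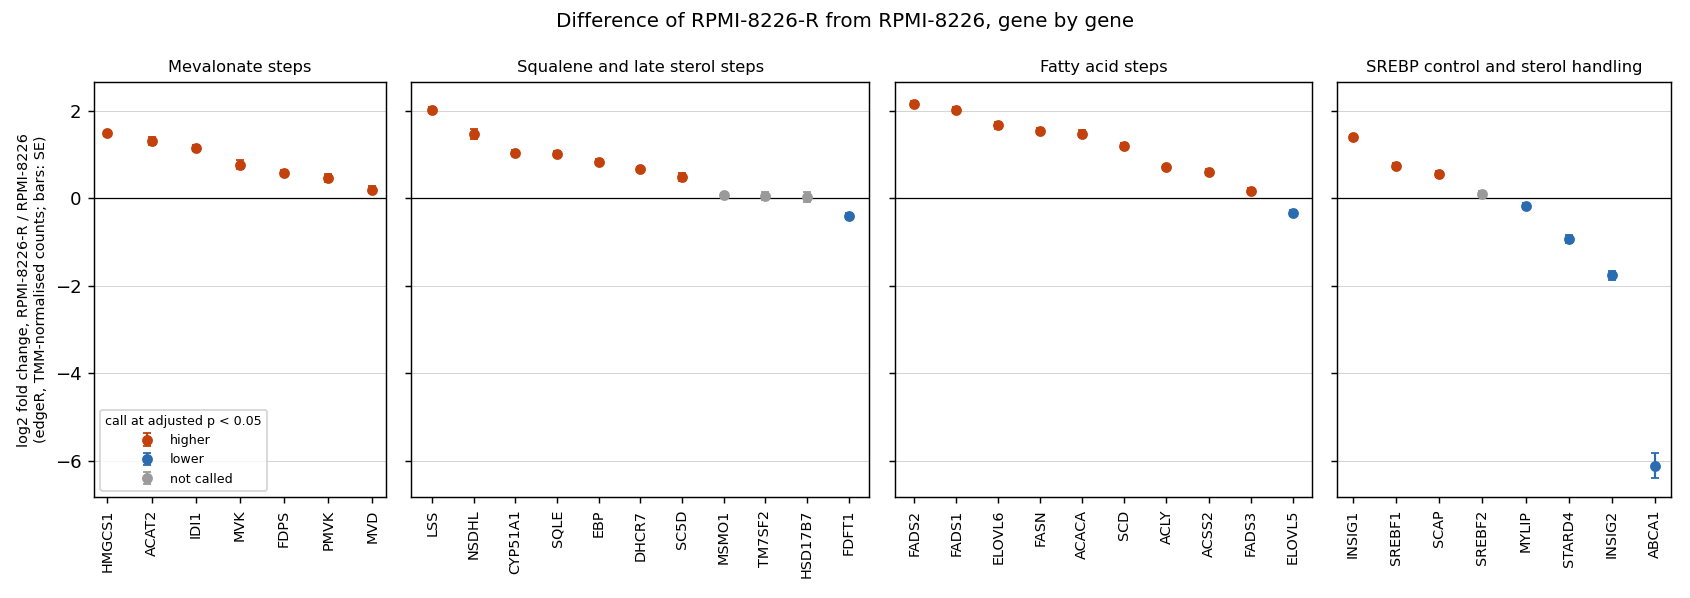
Log2 fold change of each gene in RPMI-8226-R against RPMI-8226 (vertical axis, edgeR on TMM-normalised counts; bars are standard errors), sorted within each group of steps. The mevalonate genes lie above 0, the late sterol and fatty acid groups each have 1 gene below it that was called, and the control group runs from INSIG1 at 1.39 to ABCA1 at -6.11.

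The mevalonate steps were higher throughout, with 3 of them past 2-fold. Values are given as CPM, TMM-normalised counts scaled to the size of the library, with RPMI-8226 first. HMGCS1, the synthase that makes HMG-CoA, stood at 112 and 114 CPM in RPMI-8226 and at 304 and 328 CPM in RPMI-8226-R. Its RPMI-8226-R libraries lay well above both parental ones, 2.81-fold on the fitted scale (log2 fold change 1.49 ± 0.07 SE, edgeR adjusted p = 3.2e-14). ACAT2, the cytosolic thiolase that supplies acetoacetyl-CoA to it, went from 30.04 and 28.0 CPM to 76.6 and 67.6 CPM, 2.49-fold higher (edgeR adjusted p = 8.9e-12). It overlaps TCP1, a gene of 414 mean TPM, over 558 bases on the opposite strand, and the strand used in counting is not given. IDI1, which isomerises the isoprenoid unit, went from 72.6 and 72.8 CPM to 166 and 159 CPM, 2.23-fold higher (edgeR adjusted p = 1.6e-12).

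The other 4 mevalonate genes differed by less. MVK, mevalonate kinase, stood at 19.5 and 19.9 CPM in RPMI-8226 and at 34.1 and 33.3 CPM in RPMI-8226-R, 1.71-fold higher. FDPS, which joins isoprenoid units to farnesyl diphosphate, stood at 170.3 and 164 CPM and at 252 and 250 CPM, higher by 0.59 ± 0.07 log2 units (edgeR adjusted p = 1.1e-07). Its 8 pseudogene copies carried between 33.3% and 40.9% as many reads as FDPS itself, and with the copies added the log2 ratio was 0.61 in place of 0.59. PMVK, phosphomevalonate kinase, stood at 39.3 and 38.9 CPM and at 55.9 and 52.1 CPM, 1.38-fold higher. MVD, the decarboxylase that makes the isoprenoid unit, stood at 45.96 and 48.1 CPM and at 51.8 and 56.5 CPM. The libraries did not overlap, but the difference of 0.20 ± 0.07 log2 units (edgeR adjusted p = 0.020) was the smallest of the 7. That call was lost without RPMI-8226 replicate 1 (adjusted p = 0.155), RPMI-8226 replicate 2 (0.0541) or RPMI-8226-R replicate 2 (0.0939), and with an offset for gene length (0.0704).

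In the late sterol steps the largest difference was at the ring closure. LSS, lanosterol synthase, which folds oxidised squalene into the first sterol, stood at 66.9 and 65.7 CPM in RPMI-8226 and at 255 and 281 CPM in RPMI-8226-R. Both resistant libraries were far above both parental ones, 4.05-fold (log2 fold change 2.02 ± 0.07 SE, edgeR adjusted p = 5.5e-16). The enzymes that make and use squalene went opposite ways by count. SQLE, the epoxidase just before LSS, went from 85.3 and 86.9 CPM to 172 and 177 CPM, 2.03-fold higher (edgeR adjusted p = 7.2e-12). FDFT1, the synthase that makes squalene, stood at 517 and 503 CPM in RPMI-8226 and at 389 and 383 CPM in RPMI-8226-R, 1.32-fold lower (log2 fold change -0.40 ± 0.06, edgeR adjusted p = 4.4e-06). In TPM its libraries overlapped, at 528 and 519 TPM against 501 and 533 TPM. The call was lost on the log2(TPM + 1) scale (log2 difference -0.02, limma adjusted p = 0.77). The mean length given for FDFT1 was nearly the same in the lines, at 943 and 941 bases, and the call was kept with the length offset.

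After the ring closure, NSDHL, which removes methyl groups from the ring at carbon C-4, went from 9.67 and 9.84 CPM to 28.8 and 25.6 CPM, 2.78-fold higher (edgeR adjusted p = 6.4e-10). CYP51A1, the lanosterol demethylase, went from 68.6 and 70.1 CPM to 142 and 144 CPM, 2.05-fold higher. Its 3 pseudogene copies carried 34.3% to 41.0% as many reads as the gene, and the log2 ratio with them added was 1.09 in place of 1.04. EBP, the sterol isomerase, stood at 114 and 113 CPM and at 217 and 189 CPM, 1.79-fold higher. DHCR7, which reduces the last double bond of the ring in 1 branch of the pathway, stood at 213 and 218 CPM and at 332 and 353 CPM, 1.59-fold higher. SC5D, the desaturase before it, stood at 17.1 and 18.6 CPM and at 25.1 and 24.98 CPM, 1.40-fold higher. The libraries of the lines did not overlap for any of these 5 genes.

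For 3 late sterol genes the libraries of the lines overlapped and no difference was called. MSMO1, the C-4 methyl oxidase, stood at 126 and 121 CPM in RPMI-8226 and at 125 and 134 CPM in RPMI-8226-R (log2 fold change 0.07 ± 0.07 SE, edgeR adjusted p = 0.38). MSMO1 acts just before NSDHL in the removal of the same methyl groups. TM7SF2, a sterol reductase, stood at 39.5 and 38.3 CPM and at 39.4 and 41.3 CPM (edgeR adjusted p = 0.63). HSD17B7, the ketosteroid reductase of the same demethylation, stood at 16.1 and 14.0 CPM and at 15.7 and 15.3 CPM (edgeR adjusted p = 0.79). Its 2 copies carried 7.81% to 22.8% as many reads, and with them added the log2 ratio turned from 0.04 to -0.09. On the log2(TPM + 1) scale MSMO1 and HSD17B7 were called higher, at 0.36 (limma adjusted p = 0.032) and 0.44 (limma adjusted p = 0.018).

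Of the fatty acid genes, 6 of 10 were at least 2-fold higher in RPMI-8226-R. ACACA, acetyl-CoA carboxylase, which makes malonyl-CoA, stood at 37.7 and 38.98 CPM in RPMI-8226 and at 104 and 111 CPM in RPMI-8226-R, 2.80-fold higher (log2 fold change 1.48 ± 0.07 SE, edgeR adjusted p = 1.6e-13). FASN, the synthase that builds palmitate from it, went from 331 and 329 CPM to 883 and 1044 CPM, 2.92-fold higher (edgeR adjusted p = 8.7e-14). Of the desaturation and elongation enzymes, SCD, which puts the first double bond into stearate, went from 706 and 732 CPM to 1576 and 1728 CPM, 2.30-fold higher. The RPMI-8226-R libraries of these 3 genes lay above all parental ones, and SCD and FASN had the highest mean CPM of the 10 genes in that line. The enzymes that supply acetyl-CoA differed by less. ACLY, which cleaves citrate, stood at 283 and 282 CPM and at 457 and 472 CPM, 1.64-fold higher. ACSS2, which activates acetate, stood at 48.5 and 48.98 CPM and at 69.3 and 78.8 CPM, 1.52-fold higher.

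The desaturases FADS2 and FADS1, which act on polyunsaturated fatty acids, differed most of the 36 genes by count, apart from ABCA1. FADS2, the delta-6 desaturase, stood at 183 and 196 CPM in RPMI-8226 and at 807 and 883 CPM in RPMI-8226-R. Both resistant libraries were above every other library, 4.46-fold over the parent (log2 fold change 2.16 ± 0.07 SE, edgeR adjusted p = 1.2e-16). FADS1, the delta-5 desaturase, went from 116 and 126 CPM to 462 and 523 CPM, 4.08-fold higher (edgeR adjusted p = 9.1e-16). FADS3, the neighbouring member of the family, stood at 65.7 and 65.3 CPM and at 73.4 and 74.7 CPM. Its log2 fold change was 0.18 ± 0.07 (edgeR adjusted p = 0.037), and the call was lost without RPMI-8226 replicate 1 (adjusted p = 0.132), RPMI-8226 replicate 2 (0.154) or RPMI-8226-R replicate 2 (0.0502).

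The 3 FADS genes lie within 99072 bases of chromosome 11 (GENCODE 29, GRCh38). FADS2 is at chr11:61792980-61867354 on the plus strand, FADS1 at chr11:61799625-61829318 on the minus strand and FADS3 at chr11:61873519-61892051 on the minus strand. FADS1 and FADS2 overlap over 29694 bases on opposite strands, and FEN1, a DNA repair nuclease of 107 mean TPM, lies inside the FADS2 locus on the same strand. Whether the authors counted by strand is not given, so reads within these overlaps could be split between the genes. Members lay on 18 chromosomes in all, and chromosome 11 with 6 held the most.

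The elongases went opposite ways by count. ELOVL6, which lengthens palmitate to stearate, went from 28.6 and 28.4 CPM to 89.6 and 91.6 CPM, 3.18-fold higher (edgeR adjusted p = 6.2e-14). On the log2(TPM + 1) scale the same gene differed by 0.48 (limma adjusted p = 0.042), and with an offset for its length by 0.17 (edgeR adjusted p = 0.291). ELOVL5, which lengthens polyunsaturated chains after the FADS2 step, stood at 141 and 143 CPM and at 112 and 114 CPM, 1.26-fold lower (log2 fold change -0.33 ± 0.06, edgeR adjusted p = 1.0e-04). On the log2(TPM + 1) scale ELOVL5 was not called (log2 difference -0.08, limma adjusted p = 0.44), while with the length offset the call was kept.

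Among the genes that control the pathway, the INSIG paralogs differed in direction. INSIG1, the retention protein whose own gene is a target of SREBP, stood at 637 and 653 CPM in RPMI-8226 and at 1663 and 1727 CPM in RPMI-8226-R, 2.63-fold higher (log2 fold change 1.39 ± 0.06 SE, edgeR adjusted p = 2.6e-14). INSIG2, its paralog, fell from 54.4 and 53.8 CPM to 17.6 and 14.5 CPM, 3.38-fold lower (log2 fold change -1.76 ± 0.10, edgeR adjusted p = 2.2e-12). The libraries of the lines were far apart for both. SREBF1, the gene of the factor that mainly drives fatty acid genes, went from 275 and 279 CPM to 440 and 485 CPM, 1.67-fold higher (edgeR adjusted p = 1.8e-09). SCAP, the escort that carries SREBP out of the endoplasmic reticulum, stood at 51.98 and 52.8 CPM and at 76.7 and 77.2 CPM, 1.47-fold higher (edgeR adjusted p = 5.6e-07). SREBF2, the gene of the factor that mainly drives sterol genes, stood at 339.5 and 338 CPM and at 343 and 383 CPM. Its libraries did not overlap, but the log2 fold change of 0.10 ± 0.06 was not called (edgeR adjusted p = 0.18). SREBF2 was called at 0.15 with DESeq2 (adjusted p = 0.0426) and at 0.18 in the fit of these 2 lines alone (edgeR adjusted p = 0.0246). It was also called on the log2(TPM + 1) scale, at 0.49 (limma adjusted p = 0.013). Without RPMI-8226-R replicate 1 its log2 fold change was 0.19.

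Of the genes that move sterol or govern its uptake, ABCA1 and STARD4 were lower on both scales. ABCA1, the pump that exports cholesterol from the cell and a target of the oxysterol receptors LXR, stood at 14.4 and 13.4 CPM in RPMI-8226 and at 0.148 and 0.243 CPM in RPMI-8226-R. In reads that is 727 over the parental pair against 11 over the resistant pair, a ratio per depth of 60.9 (95% interval 33.9 to 123, counting error only; edgeR adjusted p = 9.2e-14). STARD4, a carrier of cholesterol between membranes, went from 123 and 124 CPM to 58.0 and 72.3 CPM, 1.89-fold lower (edgeR adjusted p = 3.5e-07). MYLIP, the ubiquitin ligase that degrades lipoprotein receptors and another LXR target, stood at 299.6 and 299 CPM and at 247 and 286 CPM (log2 fold change -0.17 ± 0.07, edgeR adjusted p = 0.039). The MYLIP call was lost in 9 of the 12 other settings, among them each single omission of a library but that of RPMI-8226-R replicate 2 (adjusted p from 0.0605 to 0.49 in the other 5), and on the TPM scale its sign turned, to 0.19 (limma adjusted p = 0.18).

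The choice of scale moved every comparison with RPMI-8226. On the log2(TPM + 1) scale, 29 of the 36 genes were called higher in RPMI-8226-R, 3 lower and 4 not called, with a median difference of 1.14. The same scale called 7030 of all genes higher and 4557 lower, with a median of 0.08, where the counts gave 5716 higher and 7461 lower, with a median of -0.12. The median of the 36 lay above that of all genes on both scales. The 3 genes lower on both scales were INSIG2, STARD4 and ABCA1.

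**Figure D3:**
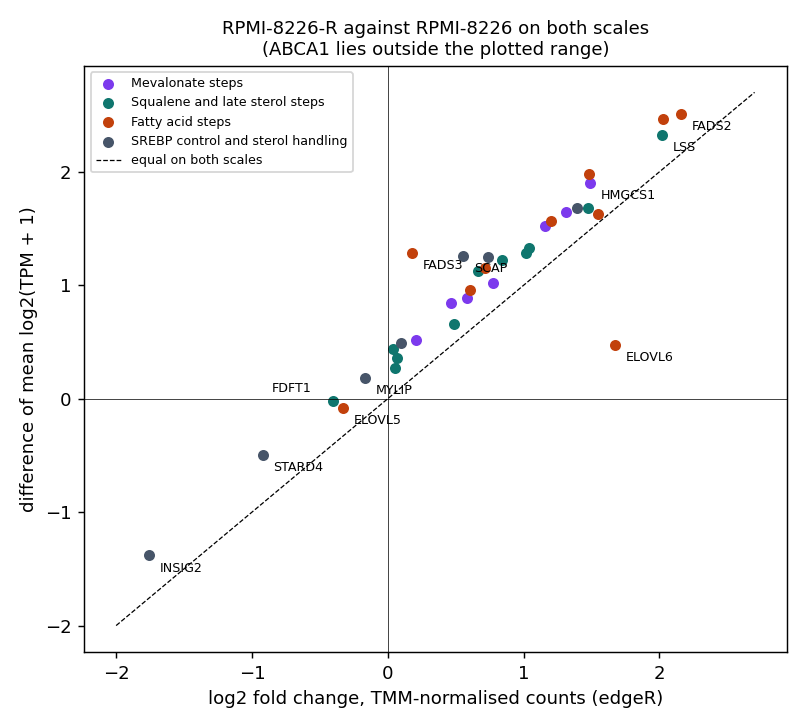
Each gene by its log2 fold change on TMM-normalised counts (horizontal axis) and its difference of mean log2(TPM + 1) (vertical axis), RPMI-8226-R against RPMI-8226, without ABCA1. Nearly all points lie above the dashed line of equality; ELOVL6 (1.67 by count, 0.48 by TPM) lies far below it and FADS3 (0.18 by count, 1.29 by TPM) far above it.

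The scales differ in their normalisation and in the gene length that TPM divides by. The median difference of the 36 genes was 0.69 by count, 0.82 with the length offset and 1.14 on the log2(TPM + 1) scale. Their median ratio of mean lengths between the 2 lines was 1.0. The part of normalisation and of length in the shift was not tested. The length of a gene in these tables is given per library, and how it was averaged over transcripts is not given in the sources used here. For ELOVL6 it was 1663 and 2088 bases in RPMI-8226, 5151 and 5157 bases in RPMI-8226-R, and 4659 and 4188 bases in the libraries labelled NCI-BL2171. Both RPMI-8226 libraries had the shortest ELOVL6, with a ratio of mean lengths of 2.75 between the resistant line and its parent. FADS3 went the other way, from 1490 and 1589 bases to 907 and 1066 bases, a ratio of 0.641. SCAP went from 3051 and 3167 bases to 2589 and 2318 bases, and FASN from 3198 and 3253 bases to 3864 and 3950 bases. The lengths of the 2 lines did not overlap for 19 of the 36 genes and for 34.3% of all genes tested. The ratio was also past 1.2 in either direction for 5 of the 36 and for 13.7% of all genes. They were the 4 genes just given and ABCA1, whose length in RPMI-8226-R rests on 11 reads. SCD, at 5245 bases, and PMVK, at 1002 bases, had the same length in all 6 libraries. ACACA differed within RPMI-8226 itself, at 4046 and 2613 bases.

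**Figure D4:**
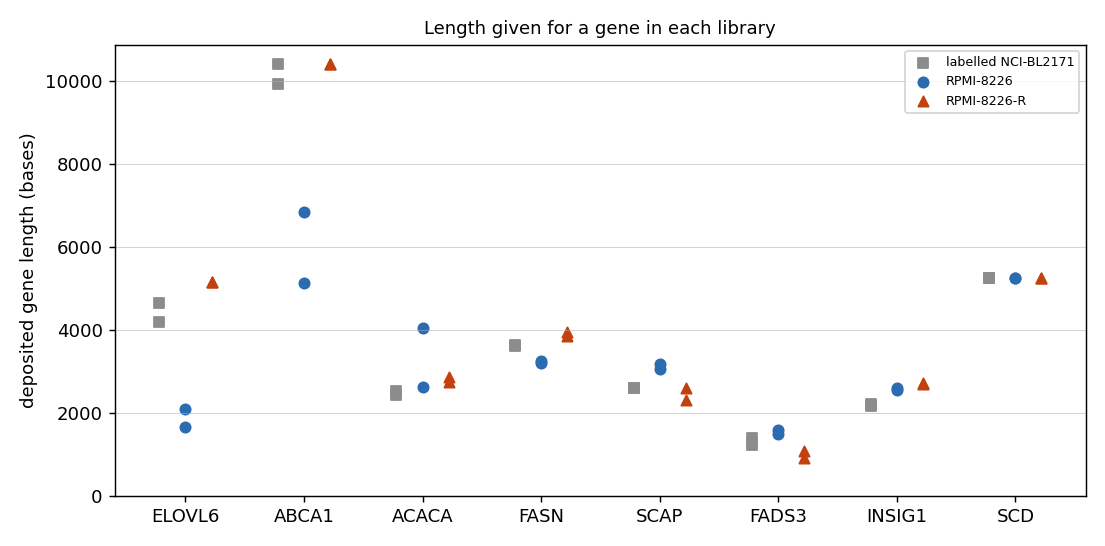
Deposited length in bases (vertical axis) of 8 genes in each library, by line. ELOVL6 and ABCA1 lie lowest in RPMI-8226, FADS3 lies lowest in RPMI-8226-R, and SCD is the same in all 6 libraries.

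Against the libraries labelled NCI-BL2171, the parental line was low for these genes. In RPMI-8226, 26 of the 36 genes were called lower, where 35.6% of all genes were, 8 were called higher, where 41.1% of all genes were, and 2 were not called. The comparison uses the same RPMI-8226 libraries as the one above. The median log2 fold change was -0.74 over the 36 genes and 0.09 over all genes. HMGCS1 was the most extreme, at 1147 and 1212 CPM in the libraries labelled NCI-BL2171 against 112 and 114 CPM, 10.5-fold lower in RPMI-8226 (log2 fold change -3.39 ± 0.07 SE, edgeR adjusted p = 1.5e-20). MVD, at 338 and 310 CPM against 45.96 and 48.1 CPM, was 6.89-fold lower, SQLE, at 448 and 453 CPM, 5.24-fold lower, and ACACA, at 152 and 159 CPM, 4.05-fold lower. By count, all of the late sterol genes but TM7SF2, and all of the fatty acid genes but FADS2, were called lower in RPMI-8226. FADS2 stood at 27.05 and 27.03 CPM in the libraries labelled NCI-BL2171 and was 7.00-fold higher in RPMI-8226. PMVK, at 7.67 and 7.21 CPM there, was 5.25-fold higher, and MYLIP, at 66.2 and 63.8 CPM, 4.61-fold higher. SREBF1, at 115 and 111 CPM, was 2.46-fold higher.

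FDPS and INSIG1 were not called between RPMI-8226 and the libraries labelled NCI-BL2171 (edgeR adjusted p = 0.19 and 0.35). Without NCI-BL2171 replicate 2 the log2 fold change of FDPS was -0.19. On the log2(TPM + 1) scale both genes were called lower, FDPS at -0.31 and INSIG1 at -0.39 (limma adjusted p = 0.0058 and 0.0019). SREBF2 was called higher at 0.15 (edgeR adjusted p = 0.045), a call that was lost without any 1 library of either line (log2 fold changes from 0.121 to 0.158). The call was also lost with DESeq2 (adjusted p = 0.175), on the log2(TPM + 1) scale (limma adjusted p = 0.864) and with no filter on low counts (edgeR adjusted p = 0.0505). The ACLY call, lower by 0.19 log2 units in RPMI-8226, was lost without RPMI-8226 replicate 1 (edgeR adjusted p = 0.0577) or RPMI-8226 replicate 2 (0.069). ELOVL6 was 1.95-fold lower by count (log2 fold change -0.96), 0.11 higher on the log2(TPM + 1) scale and 0.33 higher with the length offset (edgeR adjusted p = 0.0446), so its direction turned with the scale.

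RPMI-8226-R against the libraries labelled NCI-BL2171, a comparison that shares its libraries with the other 2, was divided. Of the 36 genes 16 (44.4%) were called higher, against 39.2% of all genes, 18 (50.0%) lower, against 38.2% of all genes, and 2 were not called, with a median log2 fold change of -0.16 (0.004 over all genes). On the log2(TPM + 1) scale 16 of the 36 were higher and 15 lower, and the median turned to 0.07 (0.07 over all genes). Of all 20081 genes tested, 7619 were called higher and 6472 lower on that scale. FADS2 was 31.2-fold higher in RPMI-8226-R, PMVK 7.25-fold, SREBF1 4.10-fold and INSIG1 2.74-fold higher (edgeR adjusted p = 3.1e-22, 1.8e-16, 5.0e-17 and 3.0e-15). On the other side, ABCA1 had 11 reads against 257, a ratio per depth of 24.2 (95% interval 13.3 to 49.1, counting error only). MVD was 5.98-fold lower, STARD4 4.73-fold lower, HMGCS1 3.73-fold lower and ELOVL5 2.76-fold lower. HMGCS1 was thus lower than in those libraries in both myeloma lines, while LSS was 2.78-fold higher in RPMI-8226-R. MVK (edgeR adjusted p = 0.22) and SCAP (0.071) were not called. The CYP51A1 call, at -0.17 (edgeR adjusted p = 0.028), was lost on the log2(TPM + 1) scale, at -0.028 (limma adjusted p = 0.809). With the length offset it was lost at -0.155 (edgeR adjusted p = 0.109). It was also lost without NCI-BL2171 replicate 2 (at -0.081), RPMI-8226 replicate 1 (-0.165), RPMI-8226 replicate 2 (-0.164) or RPMI-8226-R replicate 1 (-0.156).

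By mean CPM, 24 of the 36 genes were lowest in RPMI-8226, 7 in the libraries labelled NCI-BL2171 and 5 in RPMI-8226-R. The 5 lowest in RPMI-8226-R were FDFT1, ELOVL5, INSIG2, STARD4 and ABCA1. The highest level was in the libraries labelled NCI-BL2171 for 17 genes, in RPMI-8226-R for 16 and in RPMI-8226 for 3, namely INSIG2, MYLIP and ABCA1. By mean TPM these numbers were 15, 19 and 2. Compared per length, the level of a gene ranged from 0.016 to 1136 TPM. FDFT1 was the highest in the libraries labelled NCI-BL2171, at 1081 and 1136 TPM, and was also the highest in RPMI-8226, at 528 and 519 TPM. INSIG1 was the highest in RPMI-8226-R, at 690.1 and 776 TPM, followed by FDFT1, at 501 and 533 TPM, and SREBF1, at 411 and 502 TPM. In that line FDFT1, SREBF1, FDPS (409.6 and 449 TPM) and FADS2 (391 and 455 TPM) stood close, and the ranges of their libraries overlapped from each to the next. ABCA1 was the lowest in every library, at 0.016 and 0.027 TPM in RPMI-8226-R.

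**Figure D5:**
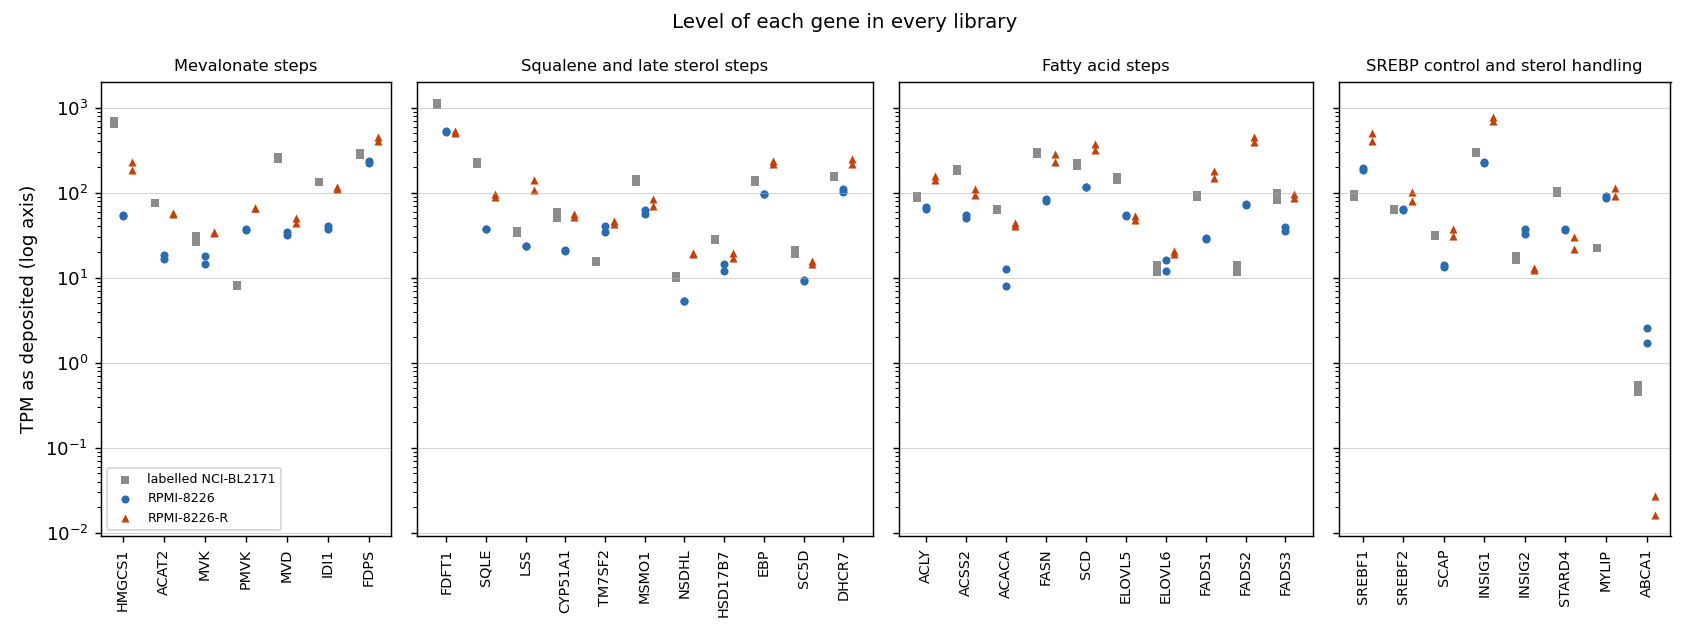
TPM as deposited (vertical log axis) of each of the 36 genes in each library, by group of steps and line. RPMI-8226 circles are the lowest symbols for most enzymes; ABCA1 in RPMI-8226-R lies far below all other points, and PMVK and FADS2 are lowest in the libraries labelled NCI-BL2171.

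Other genes of the pathway were taken from 4 lists and compared between RPMI-8226-R and RPMI-8226. The shares called by count among all genes, 28.5% higher and 37.2% lower, apply to the count calls of each list. For the calls on the log2(TPM + 1) scale, 7030 of all 20081 genes tested were higher and 4557 lower. Of 12 genes of the isoprenoid branch, which carries farnesyl units to ubiquinone, dolichol and prenylated proteins, 7 were higher (58.3%) and 4 lower (33.3%). On the log2(TPM + 1) scale 8 were higher and 4 not called (limma). PDSS1, a subunit of the enzyme that makes the ubiquinone tail, went from 3.76 and 4.63 CPM to 13.8 and 12.2 CPM, 3.10-fold higher (edgeR adjusted p = 5.1e-08). Its partner subunit PDSS2 went from 19.3 and 19.7 CPM to 13.1 and 14.6 CPM, 1.41-fold lower (edgeR adjusted p = 8.7e-04), with libraries of the lines apart for both subunits. The PDSS2 call was lost on the TPM scale, at -0.16 (limma adjusted p = 0.31). COQ2, which attaches that tail, was 2.24-fold higher (edgeR adjusted p = 3.1e-06). RABGGTA, a subunit of a prenyl transferase, was 1.38-fold lower (edgeR adjusted p = 0.0021), a call lost without RPMI-8226 replicate 2 (adjusted p = 0.0597) and on the TPM scale (limma adjusted p = 0.44).

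Of 13 further genes of sterol synthesis and SREBP processing, 8 were higher (61.5%) and 4 lower (30.8%), or 8 and 2 on the TPM scale. LBR, a sterol reductase of the nuclear envelope, went from 176 and 175 CPM to 430.0 and 426 CPM, 2.44-fold higher (edgeR adjusted p = 1.7e-13). TM7SF2, which catalyses the same reduction, was not called, as given above. RNF145, a ubiquitin ligase of the sterol-sensing system, was 2.52-fold higher, at 89.5 and 81.8 CPM in RPMI-8226-R against 33.2 and 34.8 CPM (edgeR adjusted p = 9.5e-12). ERG28, a scaffold of the demethylation complex, was 1.32-fold lower (edgeR adjusted p = 4.4e-04) but not on the TPM scale (limma adjusted p = 0.89).

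Of 16 genes of sterol transport and the LXR response, 9 were higher (56.2%) and 6 lower (37.5%), and the TPM scale gave the same counts. GRAMD1B, a carrier that takes cholesterol from the plasma membrane to the endoplasmic reticulum, went from 5.21 and 6.13 CPM to 46.7 and 56.1 CPM, 9.08-fold higher (edgeR adjusted p = 5.3e-14), with 0 reads in both libraries labelled NCI-BL2171. ABCG1, a cholesterol exporter and LXR target like ABCA1, went from 60.9 and 58.4 CPM to 21.1 and 19.0 CPM, 2.98-fold lower (edgeR adjusted p = 2.1e-11). NPC2, which hands cholesterol out of the lysosome, went from 223 and 235 CPM to 99.1 and 93.5 CPM, 2.38-fold lower (edgeR adjusted p = 6.7e-13). The libraries of the lines were apart for all 3. SMPDL3A, an LXR target, was higher on 41 and 54 reads against 13 and 20 (edgeR adjusted p = 0.0054), a call lost without RPMI-8226 replicate 1 (adjusted p = 0.073).

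Of 25 tested genes of fatty acid elongation, activation and lipid assembly, 11 were higher, 8 lower and 6 not called, against 12 higher and 1 lower on the TPM scale; THRSP was too low to test. MCAT, the malonyl transferase of mitochondrial fatty acid synthesis, went from 6.95 and 6.01 CPM to 25.97 and 25.6 CPM, 3.98-fold higher (edgeR adjusted p = 4.5e-11). The other 3 largest differences rested on few reads. ELOVL4, an elongase of very long chains, was higher on 36 and 33 reads against 16 and 7 (edgeR adjusted p = 0.019), and the call was lost without RPMI-8226 replicate 2 (adjusted p = 0.2) or RPMI-8226-R replicate 1 (0.095), with DESeq2 (0.0981) and with the length offset (0.0549). HACD1, a dehydratase of elongation, was lower on 2 and 1 reads against 9 and 7 (edgeR adjusted p = 0.0066), lost without RPMI-8226-R replicate 2 (adjusted p = 0.0573) and on the TPM scale (limma adjusted p = 0.053). MLXIPL, the carbohydrate-responsive factor ChREBP, was lower on 11 and 14 reads against 36 and 32 (edgeR adjusted p = 4.5e-04), and was not called on the TPM scale (limma adjusted p = 0.11).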

How the data were processed

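RNA-seq libraries of 3 human cell lines, 2 per line, were analysed. The authors deposited 1 table per library with estimated counts of reads per gene, TPM and lengths, per the file headers. The deposited estimated counts hold fractions of reads and were rounded before testing. The authors' TPM values were used as deposited. The lengths and effective lengths, another deposited unit, are in bases, per the file headers. Per the submitters' processing notes, the build is GRCh38.p13. Details of the quantifier, its annotation and its use of strand were not given in the sources used here.

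Each table held 61544 genes. The 46 pseudoautosomal Y copies were added to their X copies, which left 61498 genes, of which 61399 had a symbol and 58298 a position in GENCODE 29. The count test was edgeR 4.0.16 under R 4.3.3, with TMM, a filter on low counts by line (filterByExpr, at least 10 reads, and 15 in all) and a robust, two-sided quasi-likelihood F test on all 6 libraries (residual degrees of freedom 3), Benjamini-Hochberg over 20081 genes, threshold 0.05. The typical biological coefficient of variation was 6.81%. Intervals and counts of reads cover counting error only. TPM values were tested as log2(TPM + 1) with limma 3.58.1, so differences of low genes are understated. The fit was also run on simulated counts that had the same spread for all genes and libraries, unlike these data. No result here rests on that run. Alternatives were DESeq2 1.42.0, limma on TPM, an offset for effective length, no filter, only the 2 lines compared, a replicate block, and leaving out each library; their effect is in the closing section. Where an omission left a line with 1 library, that library was assumed to vary like the others.

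All 36 members are described. The members and the lists of other genes were chosen with earlier results of these data known. From each other list the 2 largest called rises and the 2 largest called falls between RPMI-8226 and RPMI-8226-R are named, except 1 that is not reported here. Libraries are named by their titles. Sequences are from RefSeq (GRCh38.p14).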

Additional observations from a re-analysis of the deposited data

How the results depend on the processing

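The counts of members called in each of the 3 comparisons stayed within 1.5 times their value under DESeq2, the length offset, no filter, the fit of 2 lines and the omission of each library. The exception was the number lower in RPMI-8226-R against RPMI-8226, which was 6 by count and 3 with limma on log2(TPM + 1), where the median of all genes was higher by more than 0.1. With the replicate block, 26 members were higher and 6 lower in that comparison, 8 and 26 in RPMI-8226 against the libraries labelled NCI-BL2171, and 16 and 18 in RPMI-8226-R against them, as without it. The block changed no call of a member. Deviations of same-numbered libraries correlated at 0.0327, -0.00351 and 0.0129, so the numbers were not taken as pairs.

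The median of the 36 in RPMI-8226-R against the libraries labelled NCI-BL2171 was -0.16 by count and 0.07 on the TPM scale. Some directions turned. In RPMI-8226-R against RPMI-8226, TM7SF2 was at -0.056 with the length offset, HSD17B7 at -0.056 without RPMI-8226 replicate 2 and up to 0.149 over the omissions of 1 library, HSD17B7 with its copies added at -0.09, and MYLIP at 0.19 on the TPM scale. In RPMI-8226 against the libraries labelled NCI-BL2171, ELOVL6 was at 0.11 on the TPM scale and 0.33 with the offset, and INSIG1 at -0.39 and -0.19. In RPMI-8226-R against those libraries, FADS3 was at 0.019 on the TPM scale, and SCAP at 0.12 on it and at 0.004 with the offset. The cause was not tested, beyond the change of length that the offset itself carries.

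With 2 libraries per line the spread is pooled over the lines. Reads of overlapping genes and of pseudogene copies could not be assigned by strand, and ABCA1, SMPDL3A, ELOVL4, HACD1 and MLXIPL rest on few reads in at least 1 line.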
